A study of Mus musculus with 6 samples.

Results

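The genes described here code for voltage-gated sodium and calcium channels and for potassium channels. They were chosen by gene symbol among the protein-coding genes of the mouse genome build GRCm38 (mm10): symbols of the Kcn families that end in a number, Scn genes that end in a, and Cacna1a to Cacna1i. The rule uses no measured value, but earlier results of these data were known when it was chosen. The choice held 111 genes of 21853 protein-coding genes. They were set against a list of H3K27ac peaks from mouse embryonic stem cells (mESCs). H3K27ac is an acetylation mark on histone H3 found at active promoters and enhancers, and the study asked by ChIP-seq whether it depends on ongoing transcription. All cells were of the E14Tg2A line, carried the Rosa26-Cre and Oct4-IRES-Puro alleles, and grew with leukemia inhibitory factor, PD0325901 and CT-99021. For 2 h they received DMSO (control), 100 nM NVP-2, an inhibitor of the elongation kinase CDK9, or actinomycin D (ActD, 800 nM in the labels), which blocks RNA polymerases, with 2 replicates each. The file used here is a list of 22973 control peaks, which the labels name for both control replicates. It holds positions only, with no height, count or score, so no value has a replicate error, the depth cannot be read from it, and treated cells were not analysed here.

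Voltage-gated channels open when the membrane potential changes and so produce and shape electrical signals. Most sodium channels (Scn) carry the rising phase of the action potential. Calcium channels (Cacna1) turn the signal into calcium entry, and voltage-gated potassium channels restore the resting state. Inward rectifiers (Kcnj) and tandem-pore channels (Kcnk) set the resting potential, and calcium- or sodium-activated potassium channels follow the state of the cytoplasm. Auxiliary subunits (Kcnab, Kcne, Kcnip, Kcnmb) form no pore and change how the pore subunits gate or reach the membrane. Most of these genes are known for their use in neurons, heart, muscle or epithelia rather than in early embryonic cells.

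The labelled cell type was checked against its markers, in lists chosen with earlier results of these data known. Promoters of 7 of 7 embryonic stem cell markers, among them Pou5f1, Nanog and Sox2, overlapped a peak. The same held for 2 of 6 neuronal markers (Tubb3 and Nefl), 1 of 7 muscle markers (Actn2) and 0 of 5 fibroblast markers. Promoters of the neuronal genes Rbfox3, Snap25, Syt1 and Syn1 had no peak.

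Few of the channel promoters carried a peak. A promoter was taken as the 1 kb on either side of the transcription start site (TSS) of a gene's longest isoform along the genome, and it was counted as marked when a peak overlapped it by at least 1 bp. Marked promoters were found for 26 of the 111 channel genes, or 23.4% (95% Wilson interval 16.5 to 32.1%), whereas 48.8% of all protein-coding genes had a marked promoter (48.2 to 49.5%). In 19 channel genes a peak covered the TSS base, or 17.1% (11.2 to 25.2%), against 44.2% of all protein-coding genes. Genes of a single list are not replicates of a condition, so no test was run between the channel genes and the rest, and the intervals cover counting error only.

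The bases upstream of the TSS are shown so that marked and unmarked promoters can be set side by side. They are given for 6 genes: Kcnk5 and Cacna1a, which are among the genes with the widest peaks over the TSS, Kcnj2, Kcnj16 and Kcnd2, which are among the farthest from a peak, and Scn2a as the classic neuronal sodium channel. Each line gives the 200 bases before the TSS of mm10, 5′ to 3′ on the strand of the gene, with CpG dinucleotides in capitals. They lie at chr14:20181810-20182009 (minus strand), chr8:84415164-84415363, chr11:111065964-111066163, chr11:110967833-110968032, chr6:21215303-21215502 and chr2:65620571-65620770 (all plus strand), and no annotated exon overlaps them.
Kcnk5: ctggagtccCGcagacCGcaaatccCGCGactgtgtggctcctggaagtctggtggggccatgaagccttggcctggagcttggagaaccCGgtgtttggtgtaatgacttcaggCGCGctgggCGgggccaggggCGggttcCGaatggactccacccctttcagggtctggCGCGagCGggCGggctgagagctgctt
Cacna1a: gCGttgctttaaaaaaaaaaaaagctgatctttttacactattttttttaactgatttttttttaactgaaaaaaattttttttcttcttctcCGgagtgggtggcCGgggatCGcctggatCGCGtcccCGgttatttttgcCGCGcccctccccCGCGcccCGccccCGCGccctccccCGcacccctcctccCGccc
Kcnj2: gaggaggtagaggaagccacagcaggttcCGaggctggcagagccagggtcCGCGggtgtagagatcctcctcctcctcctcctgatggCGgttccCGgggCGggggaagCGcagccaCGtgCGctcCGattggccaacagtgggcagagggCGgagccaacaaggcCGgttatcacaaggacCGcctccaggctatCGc
Kcnj16: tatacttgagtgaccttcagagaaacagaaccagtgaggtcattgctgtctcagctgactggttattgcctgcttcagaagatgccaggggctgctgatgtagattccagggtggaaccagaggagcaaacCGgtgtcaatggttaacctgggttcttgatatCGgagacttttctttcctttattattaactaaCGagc
Kcnd2: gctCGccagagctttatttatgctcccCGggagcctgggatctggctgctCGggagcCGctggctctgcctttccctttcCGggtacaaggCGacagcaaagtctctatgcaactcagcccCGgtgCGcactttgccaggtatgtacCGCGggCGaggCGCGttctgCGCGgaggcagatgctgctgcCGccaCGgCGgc
Scn2a: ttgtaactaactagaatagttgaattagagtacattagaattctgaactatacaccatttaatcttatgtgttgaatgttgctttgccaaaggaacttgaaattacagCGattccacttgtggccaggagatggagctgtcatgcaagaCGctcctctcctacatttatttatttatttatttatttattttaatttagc

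Of the marked genes, Kcnk5 had 14 CpG sites in these 200 bases and Cacna1a 16. Of the unmarked genes, Kcnd2 had 18 and Kcnj2 had 14, whereas Kcnj16 had 3 and Scn2a 2. Upstream sequences with 14 or more CpG sites thus stood at genes with and without a peak.

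Every class of channel had at least 1 marked promoter, and no class had all. Voltage-gated potassium channels were marked at 10 of 40 promoters (95% Wilson interval 14.2 to 40.2%). Calcium- or sodium-activated potassium channels and their relatives of the slo family were marked at 4 of 8 (21.5 to 78.5%). The tandem-pore channels had 4 of 14 (11.7 to 54.6%) and the inward rectifiers 2 of 15 (3.74 to 37.9%). Sodium channels were marked at 1 of 10 promoters (1.79 to 40.4%), calcium channels at 2 of 9 (6.32 to 54.7%), and auxiliary subunits at 3 of 15 (7.05 to 45.2%). The intervals of all 7 classes overlapped, so their order is not resolved by these counts. Those of the calcium- or sodium-activated and slo channels, the tandem-pore channels and the calcium channels held the 48.8% of all protein-coding genes. The intervals of the other classes lay below it.

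**Figure D1:**
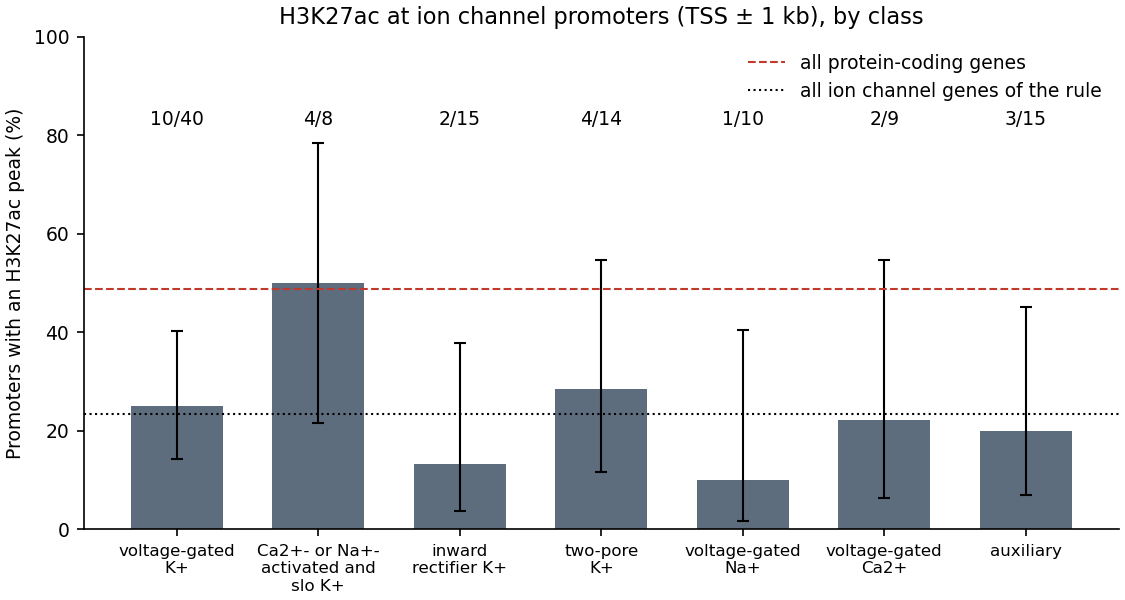
Share of promoters (TSS ± 1 kb) with a control H3K27ac peak in each class of channel genes, in percent, with marked genes over all genes of the class above each bar. Error bars are 95% Wilson intervals, the dashed line is the 48.8% of all protein-coding genes and the dotted line the 23.4% of the 111 channel genes, and the intervals of the classes overlap each other.

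Within the voltage-gated potassium channels, marked and unmarked genes stood side by side in most subfamilies. Of the 8 Shaker-type genes (Kcna), Kcna7 was marked and the others were not, including Kcna1, a main potassium channel of axons, whose nearest peak lay 163.0 kb from the TSS. Kcnc4, of a subfamily that lets neurons fire at high rates, was marked with a peak of 1939 bp around the TSS, whereas Kcnc1 of the same subfamily was 79.3 kb from a peak. Of the 3 Kcnd genes, which carry transient A-type currents, Kcnd1 and Kcnd3 were marked by peaks of 2336 and 2785 bp and Kcnd2 was not, with the nearest peak 527.1 kb away. Kcnb2, a delayed rectifier of neurons, was unmarked, with its nearest peak 357.1 kb away inside the gene. By contrast Kcng2 and Kcns3, modifier subunits that conduct only together with Kcnb subunits, counted as marked through peaks that lay downstream of their TSS, from 859 to 1170 bp and from 257 to 2124 bp. The ether-a-go-go relatives Kcnh3 and Kcnh8 were marked. Kcnh2, which repolarises the heart, had no peak at its CpG-rich promoter, and the nearest lay 8.72 kb upstream. Kcnq3, a subunit of the M-current channels of neurons, had a peak of 860 bp that began 20 bp before the TSS and ran 839 bp into the gene.

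The next class held channels gated by calcium or sodium ions and their relatives of the slo family. Of these, Kcnma1, the large-conductance BK channel, had a peak of 1654 bp over its TSS. Kcnmb4, the BK auxiliary subunit found in neurons, had a peak of 769 bp. The remaining BK auxiliary genes Kcnmb1, Kcnmb2 and Kcnmb3 were unmarked. Kcnn1, a small-conductance channel, had a peak of 7366 bp, wider over the gene's own TSS than any other but that of Kcnk5, and 6933 bp of it lay upstream. Kcnt2, a sodium-activated channel, was marked with 1966 bp, and its relative Kcnt1 was 111.3 kb from a peak. Kcnu1, a channel of sperm, was counted through a peak of 8896 bp that ended 695 bp before its TSS and held the TSS of Ash2l, a subunit of H3K4 methyltransferase complexes.

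Kcnk5, a tandem-pore channel opened by alkaline pH, had the widest promoter peak of the set, 12678 bp from 4071 bp upstream to 8606 bp downstream of its TSS (chr14:20173203-20185880, with the gene on the minus strand from 20140057 to 20181809). The other marked tandem-pore genes were Kcnk1 (1268 bp), Kcnk4 (551 bp) and Kcnk6 (426 bp). Kcnk4, a mechanically gated channel, had its peak just inside the gene, beginning 41 bp after the TSS. Kcnk2, the closely related mechanically gated channel, was 258.7 kb from a peak. Of the inward rectifiers, Kcnj12 (1876 bp) and Kcnj4 (783 bp), which both belong to the strongly rectifying subfamily, were marked. Their relative Kcnj2, the main inward rectifier of heart and muscle, was the farthest of all 111 genes from a peak, at 666.0 kb. Kcnj11, the pore of the ATP-sensitive channel of beta cells, was 65.7 kb from a peak.

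Scn8a was the only marked sodium channel gene. It codes for the sodium channel of nodes of Ranvier, and its peak spanned 581 bp, from 277 to 857 bp downstream of the TSS (chr15:100870960-100871540). No sodium channel promoter was marked when only peaks of at least 1 kb were counted. Scn2a, an early neuronal sodium channel, had its nearest peak at 165.8 kb. Cacna1a, the calcium channel that triggers transmitter release at many synapses, had a peak of 3904 bp over its TSS (chr8:84414019-84417922), and Cacna1h, a low-voltage-activated T-type channel, one of 68 bp that ended 411 bp before the TSS. The L-type channel Cacna1c, used in heart and smooth muscle, was the unmarked gene closest to the ±1 kb limit, with a peak 3006 bp upstream of its TSS. Kcnh8 was the marked gene closest to that limit from inside, with a peak that ended 984 bp before its TSS.

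**Figure D2:**
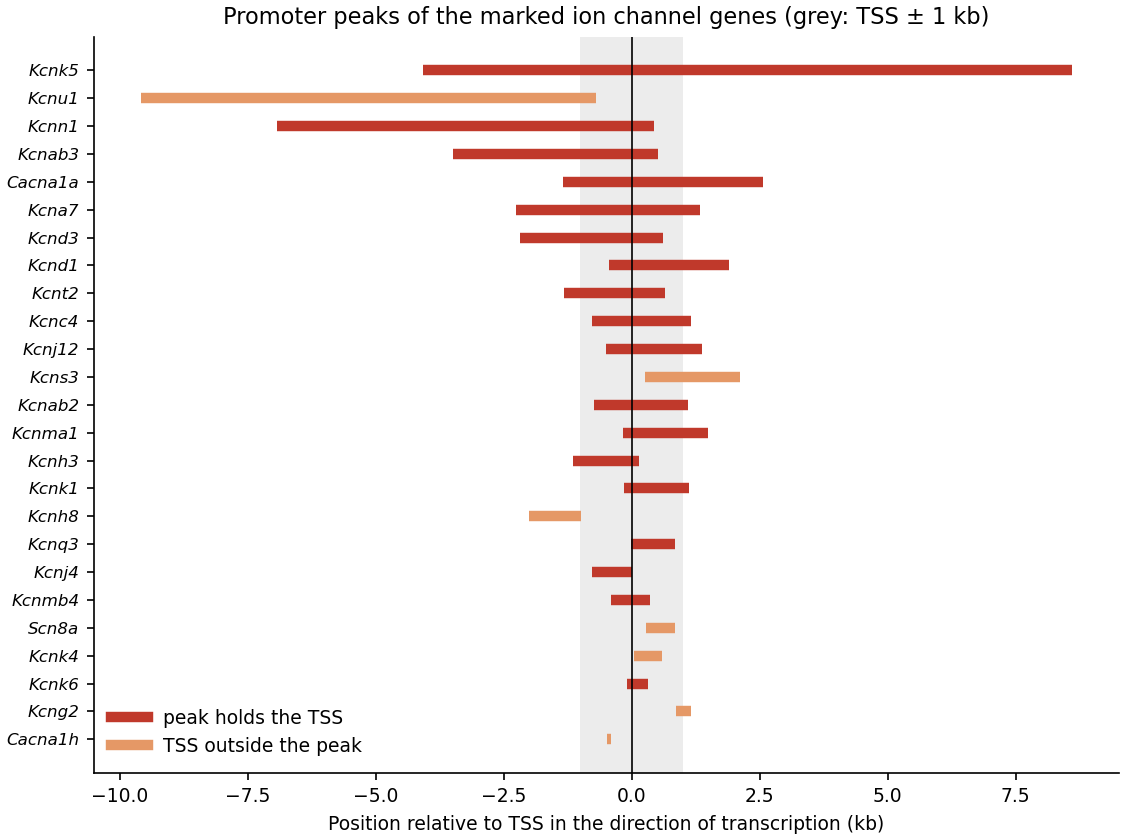
Position of the promoter peak of 25 of the 26 marked channel genes relative to its TSS, in kb, with positive values in the direction of transcription and the grey band marking TSS ± 1 kb. Red bars are 18 peaks that hold the TSS and orange bars the 7 that do not, and the bars range from 68 bp at Cacna1h to 12678 bp at Kcnk5.

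The promoter peaks of the channel genes differed widely in width and in place. Their median width was 1856.5 bp (quartiles 802.2 and 2673 bp), beside 2174 bp (1558 and 4832 bp) for the peaks at all marked coding promoters. Peaks under 1 kb made up 8 of 26, or 30.8%, whereas at all marked coding promoters they made up 10.6%. Peaks of at least 5 kb were found at 3 of the 26, or 11.5%, against 24.0%. The TSS lay outside the peak at 7 of the 26 marked genes, or 26.9% (13.7 to 46.1%), against 9.47% (8.93 to 10.0%) of all marked coding genes. These were Cacna1h, Kcng2, Kcnh8, Kcnk4, Kcns3, Kcnu1 and Scn8a. At 3 genes the peak also held the TSS of another coding gene. Besides Kcnu1 with Ash2l, these were the auxiliary subunit genes Kcnab2, whose TSS lies 271 bp from that of Nphp4, and Kcnab3, whose peak reached 3487 bp upstream over the TSSs of Trappc1 and Cntrob. Auxiliary subunits were marked in no other case than these and Kcnmb4, with 0 of 4 Kcne and 0 of 4 Kcnip genes. The list does not say to which gene a shared peak belongs, and without these 3 genes 23 channel promoters counted as marked. Shared peaks were not counted over all coding promoters.

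CpG content, shown above for 6 genes, was counted over all 111 promoters in a window of 500 bp on either side of the TSS. It is given as observed over expected, the number of CpG dinucleotides relative to that expected from the C and G content of the window. Its median was 0.71 in the 26 marked channel promoters (quartiles 0.51 and 0.80) and 0.45 in the 85 unmarked ones (0.27 and 0.70). Among all protein-coding genes the medians were 0.75 for marked and 0.24 for unmarked promoters. Unmarked channel promoters were thus richer in CpG than unmarked coding promoters in general, and their median GC content was 57.1% against 49.0%. A window was called CpG-rich when the ratio was at least 0.6 and the GC content at least 50%. This held for 47 of the 111 channel promoters (42.3%) and for 45.9% of all coding promoters. Of the 47 CpG-rich channel promoters 18 were marked, or 38.3% (25.8 to 52.6%), whereas of all 10031 CpG-rich coding promoters 81.3% were marked (80.6 to 82.1%). Of the 64 other channel promoters 8 were marked, or 12.5% (6.47 to 22.8%), against 21.3% of the other coding promoters. The 29 unmarked CpG-rich promoters included those of Kcng3 (ratio 0.96), Cacna1i (0.95), Cacna1b (0.92), Kcnk9 (0.91) and Kcnc1 (0.85), of which the first 4 were named after their values were seen. The marked promoter of the X-linked gene Kcnd1 had the lowest ratio of the marked set, 0.25, and that of Kcnmb4 the highest, 1.04.

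**Figure D3:**
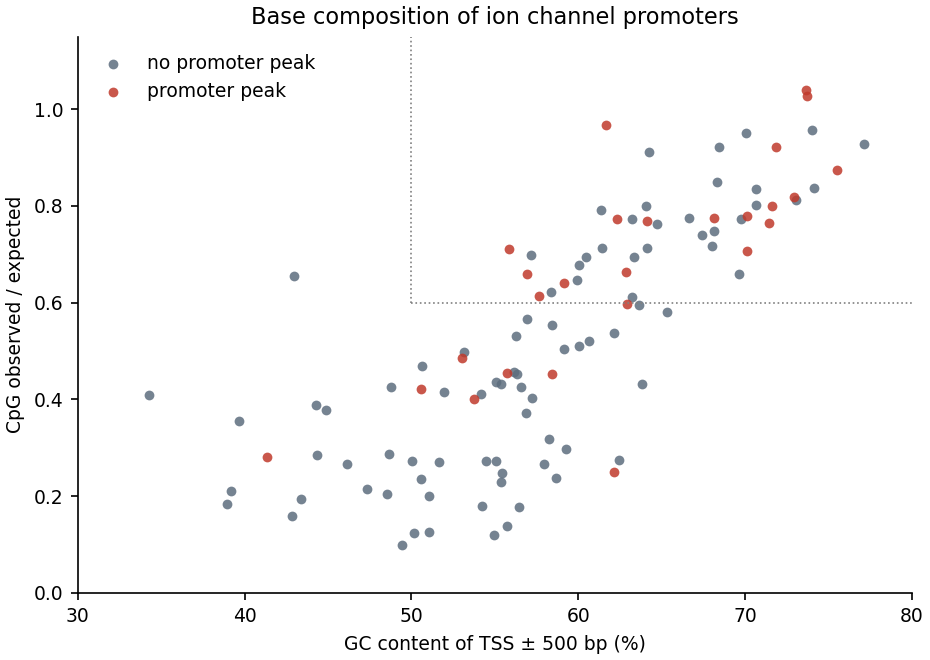
GC content in percent and observed over expected CpG of the window TSS ± 500 bp for each of the 111 channel genes, with red points for the 26 marked and grey points for the 85 unmarked promoters. Dotted lines bound the CpG-rich corner (GC of at least 50% and a ratio of at least 0.6), which holds 18 red and 29 grey points.

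REST, a repressor known to keep neuronal genes silent outside the nervous system, binds an element called RE1, and many channel genes are known targets. The core of the element was searched on both strands within 1 kb of each TSS as TCAGCACC, any 2 bases, and GGACAG. Exact matches were found at 4 of 111 channel genes (95% Wilson interval 1.41 to 8.90%) and at 43 of all coding genes, or 0.197% (0.146 to 0.265%). The 4 genes were Scn2a, Kcnh4, Kcnk12, a tandem-pore subunit, and Kcnt1, and none of them had a marked promoter. Of all 111 channel promoters 85 were unmarked, and marked promoters among the 43 coding genes were not counted. The match began at position -806 from the TSS in Scn2a and -606 in Kcnk12, and at 916 in Kcnh4 and 342 in Kcnt1, with positive values downstream. The matched sequences are printed with the 2 arms in capitals.
Scn2a, chr2:65619965-65619980: TCAGCACCacGGACAG
Kcnh4, chr11:100759011-100759026: TCAGCACCctGGACAG
Kcnk12, chr17:87798585-87798600: TCAGCACCgcGGACAG
Kcnt1, chr2:25864076-25864091: TCAGCACCgcGGACAG

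With up to 2 mismatches in the 14 letters, 10 channel genes had a match, or 9.01% (4.97 to 15.8%), beside 3.69% of all protein-coding genes. Of these 10, Kcnh8 and Kcnt2 had marked promoters. Matches were thus present at 2 of 26 marked and 8 of 85 unmarked channel promoters. Binding of REST was not measured here, and a window without these letters says nothing about the factor.

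The distance from each TSS to the nearest peak was measured for all genes. The median distance to the nearest edge of a peak was 38.4 kb (quartiles 5.75 and 154.5 kb), against 2.16 kb (0 and 63.0 kb) for all coding genes. A distance of more than 100 kb was found for 38 of the 111 genes, or 34.2%, beside 19.6% of all protein-coding genes. Over 500 kb the shares were close, with 6 channel genes, or 5.41%, against 5.33%. The distance is short by construction at a marked promoter. Among unmarked genes only, the medians were 74.3 kb for channels (order-statistic interval 44.0 to 128.5 kb) and 60.3 kb for all coding genes (58.0 to 62.4 kb), and the first interval held the second median. Of the unmarked genes, 7.06% of the channels and 10.4% of all coding genes lay over 500 kb from a peak. A peak within 10 kb was found for 7 of the 85 unmarked channel genes, or 8.24%, against 15.1% of all unmarked coding genes. Among these were Cacna1c, Kcnj14, Kcne2, Kcnj10, Kcnh2 and Kcnq1. By class, the median distance was highest for the sodium channels, 149.7 kb (42.7 to 378.1 kb). It was lowest for the calcium- or sodium-activated and slo potassium channels, 12.4 kb (0 to 289.0 kb), and the intervals overlapped. The latter class has 8 genes and includes Kcnu1, 0.695 kb from the peak that holds the TSS of Ash2l.

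**Figure D4:**
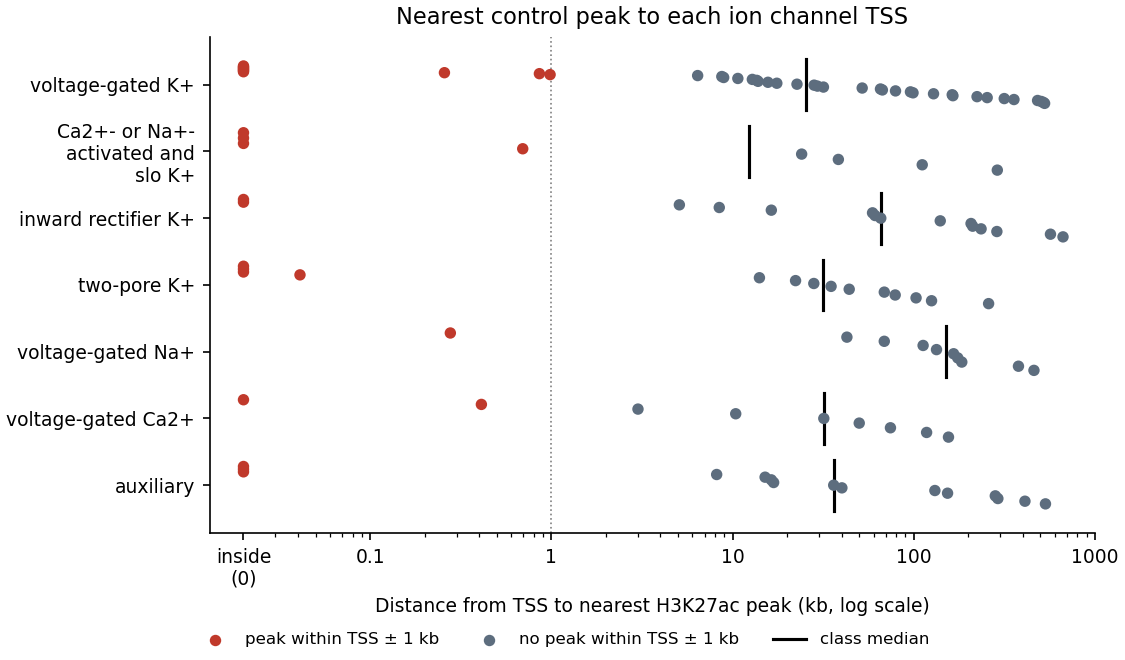
Distance from the TSS of each of the 111 channel genes to the nearest control H3K27ac peak, in kb on a log axis, by class, with TSSs inside a peak drawn at the left end. Red points are genes with a peak within 1 kb (dotted line) and grey points are the others. Black bars are class medians, from 12.4 kb for calcium- or sodium-activated and slo potassium channels to 149.7 kb for sodium channels.

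The 5 genes farthest from a peak were Kcnj2 (666.0 kb), Kcnj16 (567.9 kb), Kcnip4 (532.9 kb), Kcnd2 (527.1 kb) and Kcnh7 (519.0 kb). Kcnj2 and Kcnj16 are neighbours on chromosome 11 and shared the same nearest peak, at chr11:110396797-110400179 near the TSS of Map2k6. Counting genes whose TSSs follow each other within 500 kb as a cluster, 39 of the 111 genes fell into 16 clusters, and 4 of these 39 promoters were marked, or 10.3% (4.06 to 23.6%). Outside the clusters 22 of 72 were marked, or 30.6% (21.1 to 42.0%). The 2 intervals overlapped, and clusters of other coding genes were not counted. The sodium channel genes Scn10a and Scn11a on chromosome 9 lay 174.9 and 68.7 kb from a peak, and Scn1a, Scn9a and Scn7a on chromosome 2 lay 184.0 to 460.4 kb away. Scn3a and Scn2a, on the same chromosome, lay 112.6 and 165.8 kb from a shared nearest peak. The cluster of Kcna5, Kcna1 and Kcna6 on chromosome 6 had no marked promoter either. In the cluster of Kcna3, Kcna2, Kcna10 and Kcnc4 on chromosome 3, Kcnc4 at its end was marked and the 3 Kcna genes were 17.5 to 164.4 kb from a peak. Genes of a cluster share their surroundings. With each cluster counted once, and as marked where any of its genes was, 26 of 88 positions were marked, or 29.5%, a share that this way of counting could only raise, since no cluster held more than 1 marked gene.

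Channel genes are long, with a median span of 45.3 kb against 17.4 kb for all coding genes, and 36 of them, or 32.4%, span more than 100 kb. A peak in the gene body, the gene without the 1 kb on either side of the TSS, was found in 32 of the 111 genes, or 28.8% (21.2 to 37.9%), beside 42.5% of all protein-coding genes. A body peak apart from the gene's own promoter peak was found in 24 genes, or 21.6%, close to the 21.9% of all coding genes. A peak at the promoter or in the body was found at 43 channel genes, or 38.7% (30.2 to 48.0%), against 56.2% of all coding genes, and 68 channel genes had neither. The share with a body peak varied with length. Among genes over 100 kb, such separate peaks were found in 15 of 36 channel genes, or 41.7% (27.1 to 57.8%), and in 54.1% (52.1 to 56.0%) of all coding genes. Among genes of 20 to 100 kb the shares were 20.5% (10.8 to 35.5%) and 31.1%, and among shorter ones 2.78% (0.492 to 14.2%) and 9.22%. Promoters were marked in 19.4%, 30.8% and 19.4% of the channel genes from the shortest to the longest spans, against 41.4%, 59.7% and 50.9% of all coding genes.

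**Figure D5:**
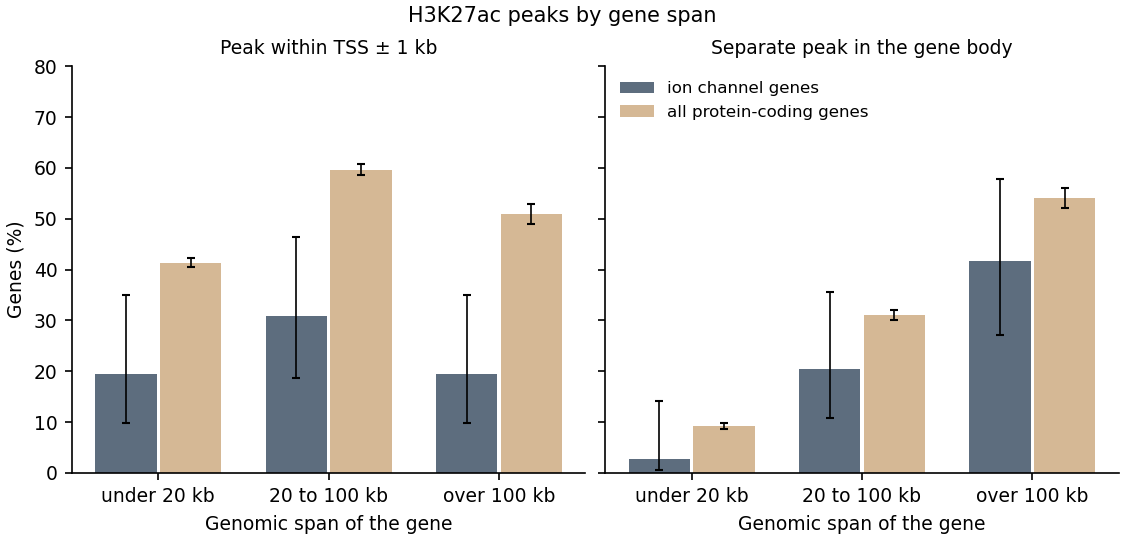
Share of genes, in percent, with a control peak within TSS ± 1 kb (left) and with a peak in the gene body apart from the promoter peak (right), for genes of 3 ranges of genomic span. Bars are the channel genes (grey) and all protein-coding genes (tan) with 95% Wilson intervals, and the share with a separate body peak was higher in longer genes of both sets, up to 41.7% and 54.1%.

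The 24 genes held 48 separate body peaks of 305 to 15391 bp, with a median of 1919 bp. Of these, 33 lay in introns only and 15 overlapped an exon of the gene. Cacna1a had the most, with 9 peaks besides that at its promoter, which began between 13.2 and 222.3 kb downstream of its TSS. The last of them, of 14213 bp, ran over the 3′ end of the gene. In Kcnma1, which spans 725.1 kb, there was a single body peak of 1612 bp in an intron. Among the unmarked genes, the most bases under separate body peaks, counted inside the gene only, were found in Kcnj6 (22540 bp in 6 peaks), Kcnq1 (16403 bp in 3), Kcnmb2 (13328 bp in 2), Kcnip4 (12475 bp in 4) and Kcnk3 (7810 bp in 1).

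At several of these genes, the peak lay at the start of a shorter isoform. Of the genes unmarked at the longest isoform, 5 had a peak within 1 kb of another isoform's TSS, so that 31 channel genes, or 27.9%, were marked when all isoforms counted, against 51.02% of all coding genes. Kcnj6, an inward rectifier opened by G proteins, had a peak of 8740 bp (chr16:94848948-94857687) that began 140.0 kb downstream of its first TSS. Kcnip4, a calcium-binding partner of Kcnd channels that spans 1135 kb, had a peak of 703 bp at an isoform start 924.6 kb downstream (chr5:48599596-48600298), although its first TSS was among the farthest from any peak. Kcnip3, of the same subfamily, had one of 3862 bp at 36.2 kb downstream (chr2:127481358-127485219). Kcnip2 had one of 15391 bp that also lay within 1 kb of the TSS of Mgea5, and Kcnn2, a small-conductance channel, one of 1923 bp. All 4 Kcnip genes were thus unmarked at the longest isoform, and 3 of them were marked at another. The list cannot tell an isoform promoter from an enhancer inside the gene.

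Of the 48 separate body peaks, 6 lay within 1 kb of the TSS of another annotated gene of any type. In 3 cases this was a coding gene, namely Mgea5, as given above, and the decapping genes Dcp1b at Cacna1c and Dcp1a at Cacna1d. The others were the peak of Kcnn2 and 2 peaks of Kcnq1, a channel of heart and epithelia. The Kcnq1 span (chr7:143106362-143427042) contains the TSS of Kcnq1ot1, a noncoding RNA known from imprinting of this region. A peak of 3487 bp (chr7:143294573-143298059) lay within 1 kb of that TSS, 187.3 kb downstream of the TSS of Kcnq1. The other body peaks of Kcnq1 were one of 9120 bp, at the TSS of Gm38321, that began 8.93 kb downstream of the TSS of Kcnq1, and one of 3796 bp that ended shortly before the peak at Kcnq1ot1. In Kcnmb2 (8181 and 5147 bp) and Kcnk3 (7810 bp) the peaks were intronic and lay at no other annotated TSS.

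Other genes of ion transport, outside the symbol rule, were counted the same way. Of 53 such genes 27 had a marked promoter, or 50.9% (37.9 to 63.9%), near the 48.8% of all coding genes. Promoters of Clcn chloride channels and exchangers, several of which serve endosomes and lysosomes, were marked at 6 of 7 genes, with Clcn1 of skeletal muscle as the exception. Slc12 cation-chloride cotransporters were marked at 6 of 9 and the sodium-potassium pump at 4 of 7. Auxiliary calcium channel subunits with Cacna1s were marked at 7 of 17. Marked promoters were found at 1 of 4 pacemaker channels (Hcn4), 1 of 4 sodium channel beta subunits and 1 of 4 Catsper channels of sperm (Catsper2), each with a 95% Wilson interval of 4.56 to 69.9%. The sodium leak channel gene Nalcn was marked. These lists are small, and no test was run between them.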

How the data were processed

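H3K27ac ChIP-seq libraries of 6 samples in 3 groups belong to the series. The values used were the start and end of each control peak, in base pairs, as the authors deposited them in a list with no score. According to the methods, reads were trimmed with cutadapt, aligned with BWA to mm10 together with a human spike-in genome, and cleared of duplicates (Picard 2.9.1) and of poor alignments (SAMtools 1.4). Peaks were called with LanceOtron, joined when within 2 kb, and removed when low after input subtraction or away from ATAC-seq summits, so a promoter without a listed peak is not shown to lack acetylation. No gap in the list was under 2001 bp.

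GENCODE M21 (GRCm38) gave genes and isoforms, the same build as the peaks but an earlier release than the authors used, and no peak passed the end of a chromosome. Bases were read from GRCm38. Starts were converted to count from 1. The interval functions were tested on simulated peaks. Python 3.11.15, numpy 2.4.6, pandas 2.3.3, scipy 1.17.1, pysam 0.24.0 and matplotlib 3.10.9 were used.

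No test between groups was run. Intervals on medians are 95% binomial order-statistic intervals. The gene set, the lists and the classes were chosen with earlier results of these data known. Named genes were all genes with a marked promoter, genes marked at another isoform, the 5 unmarked genes with the most gene-body bases under peaks, the 5 farthest from a peak and a list of 14 well-known channels, and the others were named after their values were seen. Single values of some genes are not reported here, though these genes stay in every count, and 1 of them was left out of the map of promoter peaks.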

Additional observations from a re-analysis of the deposited data

How the results depend on the processing

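The share of marked channel promoters, 23.4%, stayed within its interval in 11 of 13 alternatives. Among them were windows of ±500 bp (20.7%, all coding genes 48.4%) and ±2 kb (23.4% and 49.9%), and all isoforms (27.9% and 51.02%). Another, chosen after seeing the data, counted peaks shared with another gene as unmarked (20.7%). It was not run for all coding genes, whose 48.8% includes shared peaks. Counting a cluster once, as marked if any gene was, gave 29.5% and could only raise the share. The share moved to 16.2% with peaks at least 1 kb wide and to 8.11% with peaks at least 2 kb wide, where all coding genes gave 43.7% and 26.0%, since narrower peaks were left out. Of 35 values by class 34 stayed within their intervals, and sodium channels moved to 0% with peaks at least 1 kb wide. The share with a body peak, 28.8%, moved to 18.02% without peaks at coding or lincRNA promoters, a count not made for all coding genes. It moved to 8.33% for spans under 20 kb (all coding genes 31.2%) and to 41.7% for spans over 100 kb (61.8%). The median CpG ratio of marked promoters, 0.71, was 0.79 in the window from 250 bp before to 50 bp after the TSS, and the cause was not tested. RE1 matches fell from 10 to 4 genes with up to 1 mismatch, and those of all coding genes from 807 to 139 (0.636%), an alternative added after seeing the data. The median distance stayed between 28.1 and 51.9 kb in 4 alternatives.

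No paired analysis was possible because both control replicates stand behind 1 list of positions and no result comes from a test. Leaving out a replicate could not be done either, and a stricter peak score was not run because the list has none. Depth limits what is listed, and how far cannot be read from positions.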
